A study of Homo sapiens with 15 samples.

Results

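A set of 9 genes of matrix remodelling was followed in THP-1 cells that had been incubated with bacterial extracellular vesicles (BEVs). They are *THBS1*, *TNFAIP6*, *COL5A3*, *MMP1*, *MMP7*, *MMP9*, *MMP14*, *MMP19* and *TIMP1*, and they were found by symbol as 9 of the 60286 genes of the count table. *THBS1*, *TNFAIP6* and *COL5A3* had been chosen by their response to BEVs in these libraries (their level in the BEV groups against the control), so their levels against the control and between the species are given as a description without a test. The other 6 were taken as metalloproteinases and an inhibitor of them, with earlier results known, and 5 of them passed the filter on low counts and were tested. *MMP7* did not pass it.

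THP-1 is a human monocytic leukaemia line, labelled wild type in all 15 libraries, and each of the 5 groups held 3 libraries. The control cells (NC) received PBS. BEVs of *E. coli* were given at 1 µg/mL after isolation by ultracentrifugation (EUC) or by precipitation with ε-poly-L-lysine (EPL). BEVs of *S. aureus* were given at 10 µg/mL and had been isolated in the same 2 ways (SUC and SPL). The incubation lasted 6 h by the study's methods, while the labels give Day 0. Species and dose changed together, so the effect of one cannot be told apart from that of the other. All 4 BEV groups were compared with the same 3 NC libraries. Since these were bulk samples of a cell line, a change in the RNA of each cell cannot be told apart from a change in the share of cells that express a gene. Nothing in the labels says that the 3 libraries of a group came from separate cultures, so the p-values measure the spread between these libraries, which may be technical.

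The extracellular matrix is built of collagens, glycoproteins and glycosaminoglycans such as hyaluronan, and matrix metalloproteinases (MMPs) are zinc-dependent enzymes that cut its proteins. Most MMPs are secreted as inactive precursors, a few sit in the plasma membrane, and tissue inhibitors of metalloproteinases (TIMPs) bind the active enzymes and block them. Monocytes and macrophages that meet microbial products are a known source of secreted MMPs. Several MMP genes carry sites for the transcription factors AP-1 and NF-kappa B in their promoters.

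The library totals ran from 14399421 to 16637345 reads on genes, and 17198 genes were tested. EUC3, EPL1 and SUC3 stood apart from the other libraries of their groups. The mean chi-square per gene between replicates ran from 16.5 to 49.9 for the pairs that held one of them and from 2.21 to 7.48 for all other pairs. The 10 monocyte genes had been listed to check the cell type, and 9 of them passed the filter on low counts. The other one, *CD68*, had 0 to 3 reads per library. Levels are given as CPM, counts scaled to a normalized library size of 1000000. The summed level of the 10 genes was 2477 to 2664 CPM in the NC libraries and 2474 to 3427 CPM in the BEV libraries. Most of it came from *ELANE* and *SPI1*. Its members moved apart. *SPI1*, a myeloid transcription factor, rose from 471 CPM in NC to 1198 in EUC and was called higher in all 4 groups. *MPO* fell in all 4 (10.2 CPM in NC and 3.38 in EUC). *CD14*, at 3.77 CPM in NC, was called higher in EUC (8.87) and SUC (7.99). It was also above NC but not called in EPL (7.37) and SPL (7.01). Of the 9 tested, 6 in EUC and SUC and 7 in EPL and SPL were called in neither direction.

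Of the 9 genes, 6 (all but *MMP1*, *MMP9* and *MMP19*) had an entry in the RefSeq promoter table. The 250 bases before the start of 3 of them are shown 5′ to 3′ (GRCh38.p14) because they set a promoter with an AP-1 motif and a high level after BEVs beside one with the same motif and almost no counts, and beside one without it. They belong to *TNFAIP6* (chr2:151357342-151357591, plus strand), *MMP7* (chr11:102530748-102530997, minus strand) and *THBS1* (chr15:39580829-39581078, plus strand). Capitals mark the AP-1 motif and, in *MMP7*, also a TATA box.
TNFAIP6: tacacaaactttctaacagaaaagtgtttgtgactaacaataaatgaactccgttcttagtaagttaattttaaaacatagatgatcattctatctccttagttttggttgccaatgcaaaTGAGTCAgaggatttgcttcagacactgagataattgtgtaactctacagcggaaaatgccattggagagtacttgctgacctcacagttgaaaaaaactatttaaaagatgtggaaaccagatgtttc
MMP7: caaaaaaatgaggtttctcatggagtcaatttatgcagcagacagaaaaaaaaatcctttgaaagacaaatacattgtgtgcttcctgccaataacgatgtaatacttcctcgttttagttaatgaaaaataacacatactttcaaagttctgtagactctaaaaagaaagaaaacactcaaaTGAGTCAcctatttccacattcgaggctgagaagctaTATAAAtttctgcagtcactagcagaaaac
THBS1: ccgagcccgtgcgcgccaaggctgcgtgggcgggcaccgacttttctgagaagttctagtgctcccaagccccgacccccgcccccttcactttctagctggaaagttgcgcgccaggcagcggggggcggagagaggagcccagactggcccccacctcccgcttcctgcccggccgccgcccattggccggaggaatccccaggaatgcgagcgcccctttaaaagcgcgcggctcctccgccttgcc
The AP-1 motif was searched as TGANTCA on both strands, where N is any base. The capitals TGAGTCA lie 129 to 123 bases before the start of *TNFAIP6* and 67 to 61 bases before that of *MMP7*, and the other 4 promoters held no such run. Of all 35116 promoters in the table, 6.57% held the AP-1 motif. The NF-kappa B consensus was found in 0 of the 6 promoters and in 5.21% of all. The TATA box was searched as TATAAA, and *MMP7* was the only one of the 6 that held it, against 10.7% of all promoters. These are matches of letters and not measured binding sites.

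*TNFAIP6* (ENSG00000123610, hg38 chromosome 2, 151357592 to 151380046, plus strand) encodes TSG-6, a secreted protein that binds hyaluronan and is made during inflammation. It was at 0.064, 0.059 and 0 CPM in NC1, NC2 and NC3, which is 2 reads in all. The EUC libraries held 72.8, 85.6 and 114 CPM, and the EPL libraries held 78.3, 66.9 and 73.1 CPM. Every BEV library was far above every NC library, and within the *E. coli* groups EUC3 and EPL1 were the highest. The SUC libraries held 58.8, 50.4 and 68.3 CPM, and the SPL libraries held 59.8, 59.2 and 61.3 CPM. SUC and SPL overlapped. The ratio of normalized counts to NC was 2241 for EUC (95% exact binomial interval 620 to 18510, counting error only) and 1458 for SUC (403.3 to 12050), and the width of these intervals comes from the 2 NC reads.

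*THBS1* (ENSG00000137801, chromosome 15, 39581079 to 39599466, plus strand) encodes thrombospondin-1, a large matrix glycoprotein that binds CD36 and CD47 and can activate latent TGF-beta. Its NC libraries held 0.704, 0.529 and 0.656 CPM, 31 reads together. The EUC libraries held 115, 91.0 and 87.8 CPM and the EPL libraries held 78.4, 87.0 and 78.4 CPM, so that every EPL library was below every EUC library. The SUC libraries held 33.8, 24.1 and 22.8 CPM, while the SPL libraries held 59.1, 48.3 and 49.6 CPM. The *S. aureus* groups did not overlap with each other or with either *E. coli* group. The ratios to NC were 156.1 in EUC (95% interval 109.8 to 230), 129.5 in EPL (91.07 to 190.9), 83.54 in SPL (58.7 to 123.2) and 42.67 in SUC (29.9 to 63.08). The genes that overlap *THBS1* on either strand had 0 to 10 reads per library.

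*COL5A3* (ENSG00000080573, chromosome 19, 9959561 to 10010504, minus strand) encodes the alpha 3 chain of type V collagen, a minor fibrillar collagen that joins other fibrils. It was the least abundant of the 3 picked genes. NC1 held 0.192 CPM and the other NC libraries 0.059 and 0.060 CPM, 5 reads together. The EUC libraries held 2.15, 2.31 and 1.84 CPM and the EPL libraries 1.97, 1.78 and 2.06 CPM. All 6 *E. coli* libraries were above all others. The SUC libraries held 0.615, 0.250 and 0.066 CPM, and SUC3 was below NC1. The SPL libraries held 0.575, 0.386 and 1.24 CPM, which overlapped with SUC. The ratio to NC was 20.75 in EUC (8.592 to 65.33) and 3.021 in SUC (1.028 to 10.72). These intervals cover counting error only, leave out the spread between libraries and are not a test. The fitted log2 fold change of SUC against NC was 1.52, and it was 2.23 without NC1 and 0.63 without SUC1. Leaving out NC1 also moved it from 4.27 to 4.97 in EUC, from 4.15 to 4.86 in EPL and from 2.75 to 3.45 in SPL.

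**Figure D1:**
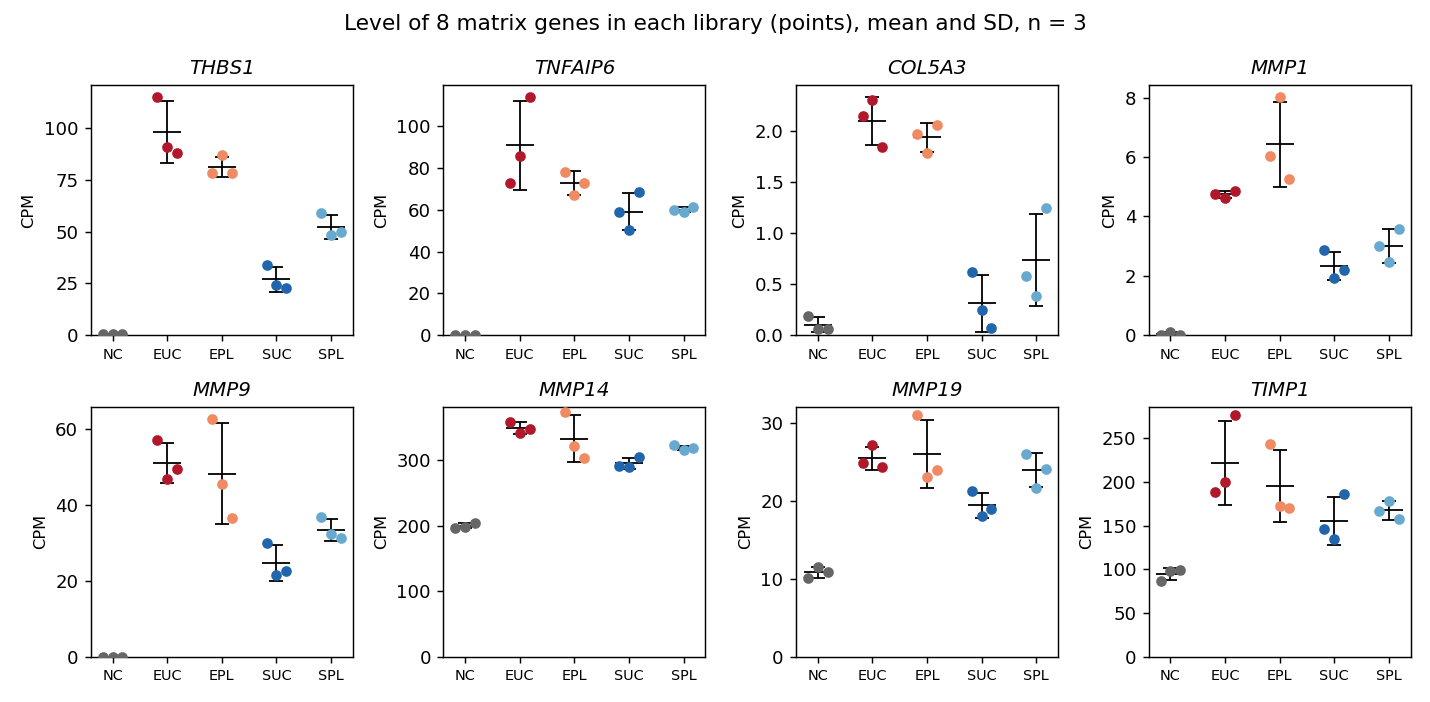
Level of 8 genes in CPM (linear axis, each panel with its own scale) for the 3 libraries of each group, with the mean and SD as bars. THBS1, TNFAIP6, COL5A3, MMP1 and MMP9 lie near 0 in PBS-treated cells (NC), while MMP14, MMP19 and TIMP1 have clear levels there, and SUC has the lowest mean of the 4 BEV groups in every panel.

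A total of 4 of the 5 tested genes outside the picked set were differentially expressed (adjusted p of at most 0.01 and at least a 2-fold change) and higher in EUC than in NC, where 9.43% of all tested genes were called higher. The count was 4 of 5 for EPL (9.38% of all tested genes), 2 of 5 for SUC (6.82%) and 3 of 5 for SPL (7.76%). None of the 5 was called lower, against 5.75%, 5.15%, 3.06% and 3.7% of all tested genes in the same order. *MMP1* and *MMP9* passed in all 4, as did 6.33% of all tested genes in the same direction. Both had 2 reads in NC and passed the filter on low counts only through the BEV groups, while *MMP7*, with few reads in every group, did not pass it, so the count over the 5 depends in part on the response and is a description. Of *MMP14*, *MMP19* and *TIMP1*, which had clear levels in NC, 2 were called in EUC and EPL, 0 in SUC and 1 in SPL.

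*MMP9* (ENSG00000100985, chromosome 20, 46008908 to 46016561, plus strand) encodes gelatinase B, a secreted enzyme of macrophages and neutrophils that cuts denatured collagen. Its NC libraries held 0, 0.059 and 0.060 CPM, 2 reads in all. The EUC libraries held 57.1, 46.8 and 49.6 CPM, and the EPL libraries held 62.8, 45.7 and 36.5 CPM. *MMP9* thus went from next to nothing to a clear level, and EPL was the group with the widest spread, with EPL1 the highest. The SUC libraries held 30.1, 21.7 and 22.5 CPM and the SPL libraries 36.9, 32.3 and 31.3 CPM, every SPL library being above every SUC library. The ratios of normalized counts to NC were 1264 for EUC (95% exact binomial interval 349.4 to 10440), 1188 for EPL (328.5 to 9816), 609 for SUC (168.2 to 5035) and 828.3 for SPL (228.9 to 6846). As *MMP9* passed the filter on low counts only through the BEV groups, these ratios are a description and no p-value is given.

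*MMP1* (ENSG00000196611, chromosome 11, 102789401 to 102798160, minus strand) encodes interstitial collagenase, which cuts fibrillar collagens. Both of its NC reads were in NC2 (0.118 CPM). The EUC libraries held 4.75, 4.61 and 4.86 CPM and the EPL libraries held 6.04, 8.03 and 5.25 CPM. Every EPL library was above every EUC library, which held for no other of the 8 tested genes. The SUC libraries held 2.87, 1.94 and 2.18 CPM, and the SPL libraries held 3.002, 2.45 and 3.59 CPM. These groups overlapped, and all 6 of their libraries were below the *E. coli* libraries. The 219 reads for EUC, 302 for EPL, 106 for SUC and 137 for SPL gave ratios to NC of 117.1 (32.03 to 973.1), 158.9 (43.61 to 1318), 57.18 (15.44 to 478.3) and 74.07 (20.12 to 617.8). *MMP1* too passed the filter on low counts only through the BEV groups, so these ratios are a description without a p-value. Without NC2 the control held no *MMP1* read, and the fitted log2 change went from 6.62 to 9.20 in EUC, from 7.06 to 9.64 in EPL, from 5.59 to 8.18 in SUC and from 5.96 to 8.55 in SPL. These fitted values are no bounds, and *MMP1* was called in each.

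*MMP7* (ENSG00000137673, chromosome 11, 102520508 to 102530750, minus strand) encodes matrilysin, a small secreted MMP known mainly from epithelia. It had 2 reads in EPL1, 1 in SUC3 and 0 in the other 13 libraries, so no fold is given. A count of 0 in the 3 NC libraries allows up to 0.0607 CPM, by a limit of 3 counts that covers counting error only. *MMP7* and *MMP1* lie in one cluster of 9 MMP genes on chromosome 11. In its order along the chromosome, the cluster had 3 reads over all libraries in *MMP7*, none in *MMP20* and *MMP27*, 48 in *MMP8*, 22 in *MMP10*, 766 in *MMP1*, none in *MMP3*, 35 in *MMP12* and 9 in *MMP13*. *MMP1* was thus the only gene of the cluster with more than 50 reads. *MMP8*, the collagenase of neutrophils, had 0 reads in NC and 13, 11, 9 and 15 reads in EUC, EPL, SUC and SPL. *MMP12*, the elastase of macrophages, had 0 reads in NC and 20, 7, 3 and 5 reads in these groups.

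*MMP14* (ENSG00000157227, chromosome 14, 22836560 to 22849041, plus strand) encodes MT1-MMP, a membrane-bound collagenase that also activates the MMP2 precursor. It was abundant without BEVs, at 197, 199 and 205 CPM in NC. The EUC libraries held 359, 342 and 348 CPM, the EPL libraries 373, 322 and 304 CPM, the SUC libraries 291, 290 and 306 CPM and the SPL libraries 323, 317 and 319 CPM. All BEV libraries were above all NC libraries. The log2 fold change against NC was 0.80 (SE 0.0768) for EUC, 0.73 (0.0768) for EPL, 0.56 (0.0767) for SUC and 0.67 (0.0767) for SPL, with edgeR adjusted p of 1.9e-07, 6.12e-07, 2.01e-05 and 2.16e-06. Each p passed and each change was under 2-fold, so *MMP14* was not called in any group.

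*MMP19* (ENSG00000123342, chromosome 12, 55835433 to 55842966, minus strand) encodes a secreted MMP found in monocytes and macrophages. It was at 10.1, 11.5 and 10.9 CPM in NC and at 24.9, 27.2 and 24.4 CPM in EUC. The EPL libraries held 31.0, 23.0 and 23.98 CPM. The SUC libraries held 21.2, 18.1 and 18.9 CPM, all below the 26.0, 21.7 and 24.1 CPM of the SPL libraries. It rose in EUC (log2 fold change 1.23, SE 0.124, edgeR adjusted p = 3.46e-07), in EPL (1.26, SE 0.123, adjusted p = 2.75e-07) and in SPL (1.14, SE 0.124, adjusted p = 1.22e-06). In SUC the value was 0.84 (SE 0.125, adjusted p = 4.93e-05), which is below 2-fold. *MMP19* shares 821 exon bases with *TMEM198B* on the other strand, and it is not known whether the counting used strand. *TMEM198B* had 80 to 212 reads per library, and its highest values were 212 in NC2 and 158 in NC3.

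*TIMP1* (ENSG00000102265, chromosome X, 47582408 to 47586789, plus strand) encodes a secreted inhibitor of most MMPs that also acts as a growth factor. NC held 87.0, 98.3 and 99.6 CPM. EUC held 188, 199.5 and 277 CPM, EPL held 243, 172 and 170.5 CPM, SUC held 146, 134 and 187 CPM and SPL held 166, 179 and 157 CPM. The highest library of its group was EUC3, EPL1 and SUC3 in turn, the libraries that stood apart, and all BEV libraries were above NC. *TIMP1* rose in EUC (log2 fold change 1.22, SE 0.161, edgeR adjusted p = 8.75e-06) and in EPL (1.04, SE 0.16, adjusted p = 5.14e-05). The EPL call was lost without NC1 (0.98) or without EPL1 (0.85). In SUC the value was 0.71 (SE 0.16, adjusted p = 0.00229) and in SPL 0.82 (SE 0.16, adjusted p = 0.000652), both below 2-fold.

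**Figure D2:**
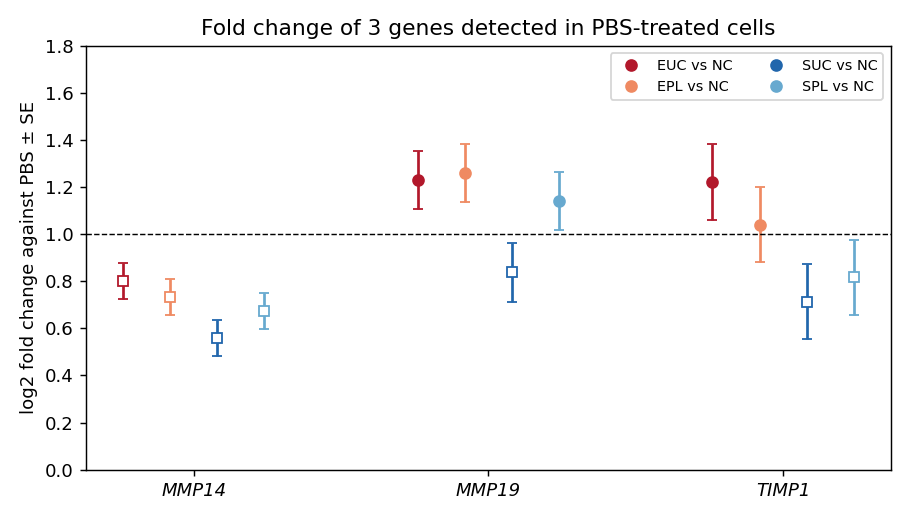
Log2 fold change against PBS with its SE for MMP14, MMP19 and TIMP1 in the 4 BEV groups. Filled circles were called and open squares were not, and the dashed line is the 2-fold threshold. MMP14 stays below the line in every group, and SUC has the smallest value for each gene.

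All 5 tested genes outside the picked set had every BEV library above every NC library, a pattern of 17.5% of all tested genes. Of the picked genes, described without a comparison, *THBS1* and *TNFAIP6* had it and *COL5A3* did not. The group means of the same 5 followed one order, with NC lowest, SUC next, then SPL, and the *E. coli* groups highest. This order held for 10.9% of all tested genes, and the picked genes had it too. *MMP1* and *MMP9*, with 2 reads each in NC, passed the filter on low counts only through the BEV groups. Both patterns against NC therefore depend in part on the response and are a description. Between EUC and EPL the order varied. EPL was the higher one for *MMP1* and *MMP19* and EUC for the other 6, with differences that did not pass the test.

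Levels of different genes were compared per kilobase of exon. In NC, *TIMP1* (65.7 ± 4.81 CPM per kb, SD, n = 3) and *MMP14* (43.4 ± 0.877) led, and *MMP19* followed at 2.32. The other 5 tested genes were each below 0.1 CPM per kb. In EUC, *TIMP1* (153 ± 33.3) and *MMP14* (75.6 ± 1.93) still led, and *TNFAIP6* (57.6 ± 13.4) came next, close to *MMP14*. *MMP9* (21.9 ± 2.28) and *THBS1* (10.7 ± 1.63) were lower. In SUC, *TNFAIP6* was at 37.5 ± 5.68 CPM per kb and *THBS1* at 2.94 ± 0.658, which put *THBS1* below *MMP19* (4.16), whereas it was above it (5.46) in EUC.

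The 23 human MMP genes summed to 77.8 ± 1.276 CPM per kb in NC, to 137 ± 4.80 and 132 ± 19.2 in EUC and EPL, and to 112 ± 2.24 and 124 ± 3.02 in SUC and SPL. *MMP14* made up 55.7% of the sum in NC and between 54.97% and 56.9% in the BEV groups, so its share moved little. The share of *MMP9* was 0.0215% in NC, 15.1% to 17.2% over the EUC libraries, 15.5% ± 2.04 in EPL, 9.43% ± 1.63 in SUC and 11.6% ± 0.766 in SPL. *MMP17*, a membrane-anchored MMP, made up 26.9% in NC and 12.1% to 15.8% after BEVs, although its own level was not called different in any group. *MMP3*, *MMP20*, *MMP26*, *MMP27* and *MMP28* had no read in any of the 15 libraries, which allows up to 0.0128 CPM for each. The sum of the MMPs per *TIMP1*, both per kilobase, was 1.19 in NC, 0.921 and 0.983 in EUC and EPL, and 1.06 and 1.07 in SUC and SPL. *MMP9* per *TIMP1* was 0.000247 in NC, 0.148 ± 0.0386 and 0.152 ± 0.0172 in EUC and EPL, and 0.101 ± 0.0264 and 0.124 ± 0.0128 in SUC and SPL. These are ratios of mRNA and not of protein or enzyme activity, and the inhibitor genes *TIMP2* and *TIMP3* are not in them.

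**Figure D3:**
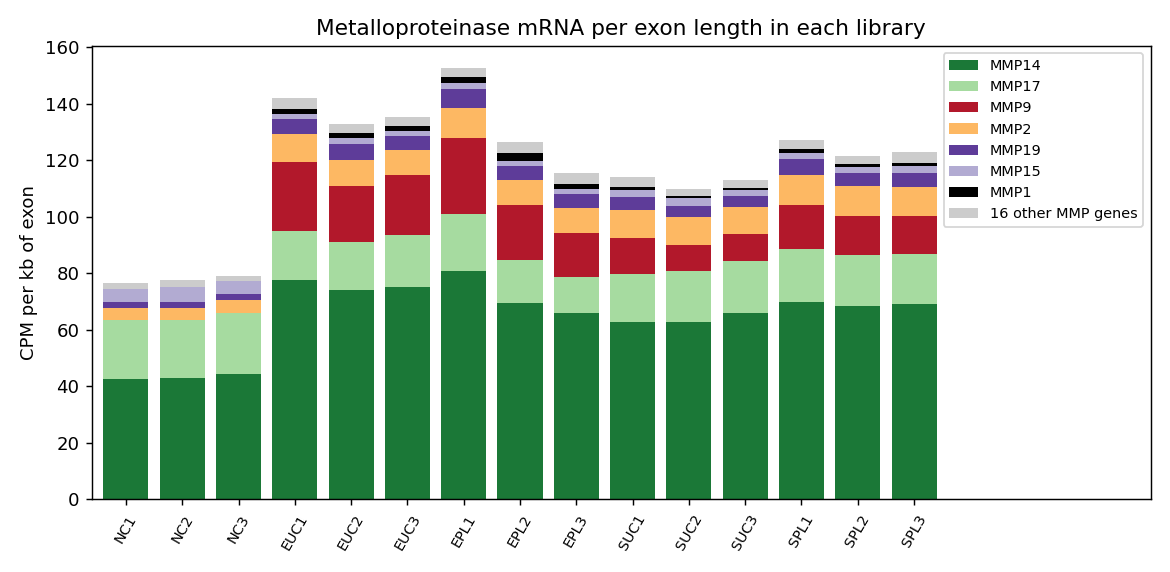
CPM per kilobase of exon of the MMP genes, stacked for each of the 15 libraries, with 7 genes in colour and the other 16 in grey. MMP14 is the largest block in every library, and the MMP9 block is visible only after BEVs, where it is larger in the E. coli than in the S. aureus groups.

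The *E. coli* groups were compared with the *S. aureus* groups, at the different doses given above. *MMP1* was higher after *E. coli* BEVs, by 1.06 on the log2 scale (SE 0.173, edgeR adjusted p = 0.000722), and it was the only one of the 5 tested genes to be called, against 0.663% of all tested genes called higher. The call was lost without EPL2, SUC2 or SPL2, where the value was 0.958, 0.994 and 0.997. *MMP9* differed by 0.79 (SE 0.119, adjusted p = 0.000372), less than 2-fold, and the groups touched, since EPL3 (36.5 CPM) was below SPL1 (36.9 CPM). *MMP14* (0.15, SE 0.0539, adjusted p = 0.124), *MMP19* (0.26, SE 0.0837, adjusted p = 0.088) and *TIMP1* (0.37, SE 0.112, adjusted p = 0.0643) did not pass the test. Among the picked genes, given without a test, the difference was 2.07 for *COL5A3*, 1.25 for *THBS1* and 0.45 for *TNFAIP6*. All *E. coli* libraries were above all *S. aureus* libraries for *MMP1*, 1 of the 5 genes that were not picked, and for 3.05% of all tested genes. The picked genes *THBS1* and *COL5A3* were separated in the same way.

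The isolation methods were compared within each species. Between EPL and EUC, edgeR called 0 of the 5 tested genes, as it called 0% of all tested genes. None of the 5 had an unadjusted p under 0.05, and DESeq2 called 0 as well. The log2 differences (EPL minus EUC) ran from -0.18 (SE 0.158) for *TIMP1* to 0.44 (SE 0.228) for *MMP1*. All EPL libraries were below all EUC libraries for *THBS1* and above them for *MMP1*, while 3.26% and 3.11% of all tested genes were separated in these directions. Between SPL and SUC, edgeR called 0 of the 5 (0.00581% of all tested genes), 2 had an unadjusted p under 0.05 and DESeq2 called 0. *MMP9* differed by 0.44 (SE 0.171, edgeR adjusted p = 0.814) and *MMP19* by 0.30 (SE 0.119, adjusted p = 0.814). Every SPL library was above every SUC library for *MMP9*, *MMP14*, *MMP19* and *THBS1*, that is for 4 of the 8 tested genes (3 of the 5 that were not picked), and for 6.87% of all tested genes.

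Among the 8 tested genes, *THBS1* had the lowest adjusted p between SPL and SUC. The difference was 0.96 on the log2 scale (SE 0.14, edgeR adjusted p = 0.0194), and between EPL and EUC it was -0.27 (SE 0.133, adjusted p = 0.947). The difference of these differences was 1.23 (SE 0.193, adjusted p = 0.0717), which did not pass, and edgeR called 0 genes for it, with 659 of all tested genes at an unadjusted p under 0.05. DESeq2 called 3 genes and gave *THBS1* 1.24 with an adjusted p of 0.000129. Without SUC1 the SPL-minus-SUC difference of *THBS1* was 1.16 (adjusted p = 0.00232) and the difference of differences 1.43 (adjusted p = 0.00416), and both passed. Without EUC3, EPL1 and SUC3 the latter was 1.17 (adjusted p = 0.000952), and it also passed without the filter on low counts. Most alternatives did not change the outcome for *THBS1*. Its SPL-minus-SUC difference stayed uncalled in 20 of 21 alternatives, and its difference of differences in 17 of 21. *COL5A3* differed by 1.22 between SPL and SUC (SE 0.564, adjusted p = 0.836), with overlapping libraries, and *TNFAIP6* by 0.02 (SE 0.142, adjusted p = 0.984). The picked genes were not chosen for the isolation method, but earlier results for it were known.

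**Figure D4:**
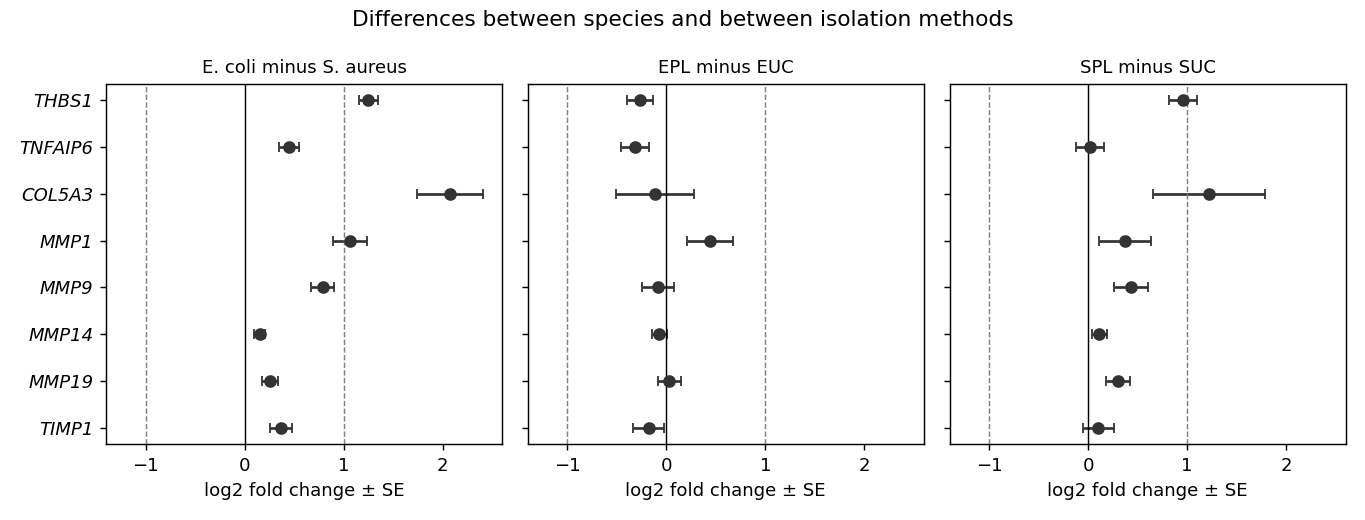
Log2 fold change with its SE of 8 genes for E. coli minus S. aureus (left), EPL minus EUC (middle) and SPL minus SUC (right), with dashed lines at 2-fold. All 8 values are above 0 on the left, where species and dose changed together, and THBS1 is close to the 2-fold line on the right and slightly below 0 in the middle. On the left, the values and bars of THBS1, TNFAIP6 and COL5A3 are a description and not a test.

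The genes around these were taken from 7 lists of matrix genes with 163 entries outside the 9, of which 110 were tested. In EUC 26 of the 110 (23.6%) rose and 7 (6.36%) fell against NC, where 9.43% of all tested genes were called higher and 5.75% lower. In EPL 28 (25.5%) rose and 6 (5.45%) fell, against 9.38% and 5.15% of all. In SUC 23 (20.9%) rose and 4 (3.64%) fell, against 6.82% and 3.06%, and in SPL 24 (21.8%) rose and 4 (3.64%) fell, against 7.76% and 3.7%. The shares that fell were near those of all tested genes. Listed genes with few reads in NC passed the filter on low counts through the BEV groups, so these shares are a description. The median log2 fold change of the 110 was 0.09 for EUC, 0.18 for EPL, 0.09 for SUC and 0.15 for SPL, and that of all tested genes was within 0.01 of 0 in each. In EUC 77 of the 110 were called in neither direction, and 45 passed the adjusted p when no threshold was set on the fold. CPM values of the listed genes are means of the 3 libraries of a group.

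Of the other metalloproteinases, 7 of 18 were tested. *MMP2*, gelatinase A, which is activated by MMP14, rose in all 4 groups, from 20.4 CPM in NC to 43.2 in EUC and 45.8 in SUC (log2 fold change 1.09, SE 0.0965, and 1.17, SE 0.0964). *MMP25*, a membrane-anchored MMP of leukocytes, also rose in all 4 (1.31 in EUC and 1.03 in SUC). *MMP15*, another membrane MMP, fell by 1.40 on the log2 scale in EUC, by 1.33 in EPL and by 1.11 in SPL, and its value in SUC was -0.99. The list's median was -0.25 in EUC and -0.10 in SUC, and 4 of the 7 were called in neither direction in EUC. Of 13 tested inhibitors and activators 1 (7.69%) was called higher in each group, a share near the 6.82% to 9.43% of all tested genes called higher. This gene was *PCSK5*, a proprotein convertase, which rose from 0.67 CPM in NC to 5.91 in EUC and 3.17 in SUC. None of the 13 was called lower. *TIMP2* came close to the 2-fold threshold in EUC, with 61.3 CPM in NC and 31.6 in EUC.

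Of 21 tested ADAM and ADAMTS proteases, 5 (23.8%) rose and 3 (14.3%) fell in EUC, against 9.43% and 5.75% of all tested genes. In SUC 5 rose and 1 (4.76%) fell, against 6.82% and 3.06% of all. *ADAMDEC1*, a protease of macrophages and dendritic cells, went from 0.345 CPM in NC to 17.4 in EUC and 9.66 in SUC (log2 fold change 5.63, SE 0.224, and 4.78, SE 0.236). *ADAM19* went from 3.55 CPM in NC to 44.2 for EUC, 50.3 for EPL, 11.97 for SUC and 21.7 for SPL. It was one of 2 listed genes called between the species, at 1.55 on the log2 scale (edgeR adjusted p = 1.07e-05), and the other was *COL5A2* at 1.17 (adjusted p = 2.31e-05). *ADAMTS15*, a proteoglycan-cutting enzyme, fell by 1.95 on the log2 scale in EUC and by 1.93 in SUC.

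Among hyaluronan genes, the group to which TNFAIP6 belongs by its binding, 5 of 15 tested (33.3%) rose in EUC, EPL and SPL and 4 (26.7%) in SUC, against 9.43%, 9.38%, 7.76% and 6.82% of all tested genes. None of the 15 fell, where 3.06% to 5.75% of all tested genes did. *CD44*, the main hyaluronan receptor of leukocytes, rose from 59.8 CPM in NC to 880 for EUC, 849 for EPL, 541 for SUC and 603 for SPL (log2 fold change 3.88, SE 0.0884, in EUC and 3.18, SE 0.0859, in SUC). *PTX3*, a pentraxin that TSG-6 binds, rose by 3.40 (SE 0.179) in EUC and 2.91 (SE 0.179) in SUC. The list's median against NC was lowest for EUC (0.14) and highest for EPL (0.98), with SUC (0.52) and SPL (0.76) between. Compared directly, EPL minus EUC had a median of -0.007 over the same 15 genes, and 0 were called. The gap between the medians against NC is therefore not a measure of the isolation method. Of 16 tested thrombospondins and partners of thrombospondin-1, 3 (18.8%) rose and 1 (6.25%) fell in EUC, against 9.43% and 5.75% of all tested genes. In SUC 2 (12.5%) rose and 1 fell, against 6.82% and 3.06%. *CD36*, its scavenger receptor, rose from 47.4 CPM to 146 in EUC and 152 in SUC, and *SDC4*, a cell-surface proteoglycan, from 23.5 CPM to 137 and 117. *THBS4*, a relative of *THBS1*, went the other way, from 16.9 CPM in NC to 2.92 in EUC and 3.75 in SUC, and it fell by 2.53 and by 2.17 on the log2 scale. *TGFB1* was at 185 CPM in NC and 233 to 250 CPM after BEVs and was not called.

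Of 19 tested genes of fibrillar collagens and their processing, 4 (21.1%) rose in EUC and in SUC, 5 (26.3%) in EPL and 3 (15.8%) in SPL, against 9.43%, 6.82%, 9.38% and 7.76% of all tested genes. None of the 19 fell, where 3.06% to 5.75% of all tested genes did. *COL5A2*, which encodes the alpha 2 chain of type V collagen and so belongs with *COL5A3*, went from 1.45 CPM in NC to 7.84 for EUC, 7.63 for EPL, 2.90 for SUC and 4.05 for SPL. *COL5A1*, the gene of the alpha 1 chain, had 2 reads in SPL1 and 0 in every other library. *COL24A1* rose from 5.79 CPM to 22.6 in EUC and 16.95 in SUC. *SERPINH1*, the collagen chaperone, was at 189 CPM in NC, 94.99 in EUC and 134 in SUC, with a log2 value of -0.99 in EUC that is just under 2-fold. Of 19 other tested glycoproteins and proteoglycans, 6 (31.6%) rose and 2 fell in EUC, against 9.43% and 5.75% of all tested genes, and 5 (26.3%) rose and 2 fell in SUC, against 6.82% and 3.06%. *TNC* (tenascin-C) rose from 0.223 CPM to 5.49 in EUC and 2.20 in SUC, and *LAMB3*, a laminin chain, from 16.8 CPM to 75.8 and 48.5.

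Because fibroblasts express many of these genes, 8 genes of stromal cells were examined in the same libraries. Their summed level was 2.38 to 3.01 CPM in NC, 6.89 to 7.24 for EUC, 6.95 to 10.3 for EPL, 4.09 to 5.26 for SUC and 4.83 to 6.2 for SPL. Of 4 tested, *COL1A1* and *DCN* rose in all BEV groups, and both are also in the lists above. *COL1A1* went from 0.746 CPM in NC to 3.57 in EUC, and *DCN* from 0.0196 to 1.52. The other tested genes were not called, *FAP* at 0.0792 CPM in NC and 0.521 in EUC (log2 fold change 2.57, edgeR adjusted p = 0.0118) and *PDGFRB* at 1.76 and 0.755 (-1.20, adjusted p = 0.0274). *LUM* had no read in NC and had reads in every BEV library, 6 to 10 in each EUC library and 1 to 11 in each of the others. *COL3A1* had no read in NC and EUC and at most 3 in any library, and *COL1A2* had 1 read in all, in SPL. Endothelial genes summed to 1.94 to 2.11 CPM in NC and 0.594 to 2.12 CPM after BEVs, epithelial genes to at most 0.705 CPM, and genes of T and B cells to 3.9 to 5.48 CPM in NC and 1.38 to 4.62 CPM after BEVs. The part of such cells in the results was not tested.

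The genes whose pattern was nearest to each of these were sought among 13312 protein-coding genes, by the root mean square difference of centred log2 CPM over the 15 libraries. *CXCL10* (0.167), *EBI3* (0.259) and *CCL4* (0.279) were nearest to *TNFAIP6*, and *TNFRSF9* (0.344), *CXCL1* (0.357) and *VCAM1* (0.358) to *THBS1*. *SLAMF7* (0.266), *CCL8* (0.29) and *CXCL8* (0.31) were nearest to *MMP9*. These 9 were also the nearest by group means. *LRRN1* (0.421) and *CSF3* (0.441) were nearest to *COL5A3*, and *PDE4B* (0.288), *IL10RA* (0.292) and *OLR1* (0.299) to *MMP1*. *ZDHHC18* (0.0515) was nearest to *MMP14*, *SBNO2* (0.0981) to *MMP19* and *SLC3A2* (0.071) to *TIMP1*. None of the nearest 3 of *MMP1*, *MMP14*, *MMP19* or *TIMP1* was among the nearest 3 by group means.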

How the data were processed

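The authors checked paired reads with FastQC 0.11.5, aligned them to hg38 with HISAT2 2.1.0 at default parameters and deposited raw read counts per Ensembl gene, one column per library. The submitters' processing notes also name featureCounts, StringTie 1.3.3b and DESeq 1.28.0 without a role. How strand was treated, and which annotation release was counted, is not given in the sources used here. Overlapping genes are therefore uncertain. The table had 0 rows without a gene name, and 0 columns of values were left unused.

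Libraries were grouped by their labels. R 4.3.3 and edgeR 4.0.16 were used on the deposited counts. Low genes were removed with filterByExpr, TMM factors were used, and 1 quasi-likelihood model without a replicate block was fitted to all 15 libraries. P-values were adjusted over all 17198 tested genes by the Benjamini-Hochberg method. A call needed an adjusted p no higher than 0.01 and a log2 change of 1 or more in either direction, the thresholds of the study, which used DESeq2. CPM are counts scaled to a TMM-normalized library size of 1000000, and log2 CPM used a prior count of 2. The ratio of normalized counts is given with an exact binomial interval for *TNFAIP6*, *MMP1* and *MMP9* (2 reads each in NC), *COL5A3* (5) and *THBS1* (31). The SE of a log2 fold change is its absolute value divided by the square root of the F value of edgeR's quasi-likelihood test. A fitted fold change is not used as a bound. Intervals and limits cover counting error only, leave out the spread between libraries and are not a test. Positions, exon lengths and overlaps come from GENCODE release 44, and promoter sequences from RefSeq. The scripts were tested on simulated data.

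The 9 genes, the lists, the markers and the tests were chosen with earlier results of these data known. All 9 are named. Each list gave up to 4 called genes with the largest mean change and a mean of at least 1 CPM, and up to 2 abundant genes that were not called, and the text gives a part of them. *COL3A1*, *COL1A2*, *COL5A1*, *LUM*, *DCN*, *FAP*, *PDGFRB*, *CD68*, *SPI1*, *MPO*, *CD14*, *TIMP2*, *TIMP3* and the MMP genes with few or no reads were named after their values were seen. Alternatives were RLE factors, DESeq2 1.42.0, no filter, no fold threshold, fewer groups in the fit, a replicate block and each library left out in turn. Leaving out EUC3, EPL1 and SUC3 together was added after seeing the data.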

Additional observations from a re-analysis of the deposited data

How the results depend on the processing

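The numbers of the 5 tested members and of the 110 listed genes called were recomputed under 352 alternatives in all, of which 9 moved a number by over 1.5 times, and no called fold change turned its direction. Without a fold threshold, the members called rose from 2 to 5 in SUC, from 3 to 5 in SPL and from 1 to 2 between the species, and the listed genes called from 27 to 41, from 28 to 43 and from 2 to 17, since changes under 2-fold were then called. With each library left out in turn, the members called ranged from 0 to 1 between the species, from 3 to 4 in EPL, and stayed at 4 in EUC, 2 in SUC and 3 in SPL. Without EUC3, EPL1 and SUC3 together, *TIMP1* in EPL was at 0.86 on the log2 scale and not called. All genes called went from 2610 to 5251 in EUC, 2498 to 5026 in EPL, 1700 to 3697 in SUC, 1972 to 4114 in SPL and 118 to 665 between the species without a fold threshold. For SPL against SUC, 1 gene was called by edgeR and 2 by DESeq2, and for the difference of methods between the species 0 by edgeR, 3 by DESeq2 and 4 by edgeR without the filter. With a replicate block the members called were 4 in EUC, 4 in EPL, 2 in SUC, 3 in SPL and 1 between the species, as without it. Deviations from the group means correlated at -0.452 to 0.525 (median 0.0218) between libraries of the same replicate number. Between libraries of other numbers the range was -0.484 to 0.488 (median -0.00776). By mean correlation, 11 of the 15 libraries were closer to their own number. These values do not settle whether the replicate numbers pair the libraries. The ratios of *TNFAIP6*, *MMP1* and *MMP9* rest on 2 NC reads each, which is what depth limits most.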
